A study of Bos taurus with 4 samples.

Results

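The 7SL RNA fragments described here are the reads that the deposited annotation names as 7SL RNA, and they comprised 460 of the 2468643 distinct sequences of the series. A sequence was taken as 7SL when at least 1 of its names was a 7SL copy (Rfam family RF00017), and its reads were divided equally among its names. The study sequenced small RNAs of bovine oocytes arrested at the germinal vesicle (GV) stage, in 2 libraries of RNA co-precipitated with an antibody to Tdrkh (TDRKH IP, anti-Tdrkh from Proteintech) and 2 input libraries with no antibody. The labels give no genotype or treatment for either group, and no number of oocytes or animals behind a library. Whether replicates 1 and 2 came from separate pools of oocytes is not in the labels, and p-values then cover only the spread between these libraries, which may be technical. A precipitation with a control antibody was not analysed here.

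7SL RNA is the RNA scaffold of the signal recognition particle, which guides ribosomes that make secreted and membrane proteins to the endoplasmic reticulum. It is made by RNA polymerase III and folds into an Alu domain, built from both ends of the RNA, and an S domain from its middle, and mammalian genomes carry many truncated 7SL copies. TDRKH is a Tudor and KH domain protein of the mitochondrial surface that binds PIWI proteins, the partners of piRNAs, and piRNAs of mammals mostly begin with U, read as T in sequencing. By its title the series asks which PIWI complex TDRKH belongs to in mammalian oocytes. The comparison of IP with input shows which small RNAs had a larger or smaller share in the precipitate, and background binding was not measured.

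The IPs held 11138905 and 11060320 listed reads, against 1079364 and 1354003 in the inputs, so the IPs were 9.12 times deeper in sum. Reads named for piRNA clusters made up 96.8% to 96.9% of the IPs and 87.8% to 88.8% of the inputs. piRNAs are the small RNA class in which GV oocytes of cattle are rich. Bovine microRNA made up 0.0603% and 0.0735% of the IPs, against 1.77% and 1.82% of the inputs. All 5 marker lists of other cell types were lower in the IPs. The summed level of the 4 cumulus and granulosa cell microRNAs was 1.26 and 2.71 reads per 1000000 listed reads (RPM) in the IPs, against 236 and 283 RPM in the inputs, and 1 of the 4 (miR-132) was at 0 in both IPs. Leukocyte microRNAs summed to 0.628 and 0.316 RPM in the IPs, against 60.7 and 49.5 RPM in the inputs, with miR-150, miR-142 and miR-223 at 0 in both IPs and miR-223 at 0 in both inputs too. The epithelial list summed to 0.181 to 0.628 RPM in the IPs against 58.4 to 59.1 RPM in the inputs, miR-122 of liver to 1.71 to 2.35 RPM against 335 to 435 RPM, and the smooth muscle and stroma list to 0.988 to 1.81 RPM against 64.3 to 87.1 RPM, with miR-1 at 0 in all libraries. The 3 microRNAs of the oocyte list moved the same way, with sums of 33.8 and 44.1 RPM in the IPs against 3213 and 3809 RPM in the inputs. The part of other cells in the 7SL result was not tested. These levels compare precipitated RNA with input, so the lower levels in the IPs do not measure how many cells of a type were present.

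The 7SL reads could be laid out without a reference genome, because most overlapped each other. Of the 728 reads, 710 were placed on 3 stretches assembled from the reads themselves, with at most 2 mismatches, and 502 matched exactly. Stretch 1 was of 127 nt, stretch 2 of 128 nt and stretch 3 of 46 nt, and ends are given as bases counted from 1 at the 5′ end of each. Stretch 3 is shown because its reads stood apart from the others, with capitals on the span of the IPs' most abundant exactly matching read.
Stretch 3, 46 nt: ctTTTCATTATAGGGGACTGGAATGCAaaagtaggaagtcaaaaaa
Stretch 2 was joined from 3 shorter assemblies over 2 overlaps of 9 bases. Stretch 3 holds reads of a single name, ENSBTAG00000046888.1. The longest run that stretch 3 shares with stretch 1 or 2 on the same strand was 7 nt, so these reads do not resemble the other 7SL reads in sequence, and they are called by that identifier below.

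Few 7SL reads were found in the TDRKH IPs. The IPs held 105 and 107 7SL reads (69 and 72 distinct sequences), against 220 and 296 (158 and 210 sequences) in the shallower inputs. In RPM, 7SL reached 9.43 and 9.67 in the IPs, against 204 and 219 in the inputs. The groups did not overlap, and the mean was 9.55 ± 0.175 RPM in the IPs and 211 ± 10.5 RPM in the inputs (SD, n = 2 each), 22.1-fold lower in the IPs. The counting intervals (exact Poisson, 95%, counting error only) were 7.71 to 11.4 and 7.93 to 11.7 RPM in the IPs, against 178 to 233 and 194 to 245 RPM in the inputs.

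In the fit over all names with the 7SL names merged, 7SL fell by 4.47 on the log2 scale in the IPs (SE 0.11, edgeR quasi-likelihood test, adjusted p 3.701e-08). In that fit 58.4% of the 5441 features tested were called lower and 16.4% higher in the IPs, and the median feature had a log2 change of -2.47. 7SL lay below that median. All of these are shares of a library that piRNAs fill. With the total of microRNA reads as library size the direction turned, and 7SL had a log2 change of 0.29 (edgeR, adjusted p 0.335), so the drop of 7SL was close in size to that of the microRNAs as a whole.

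**Figure D1:**
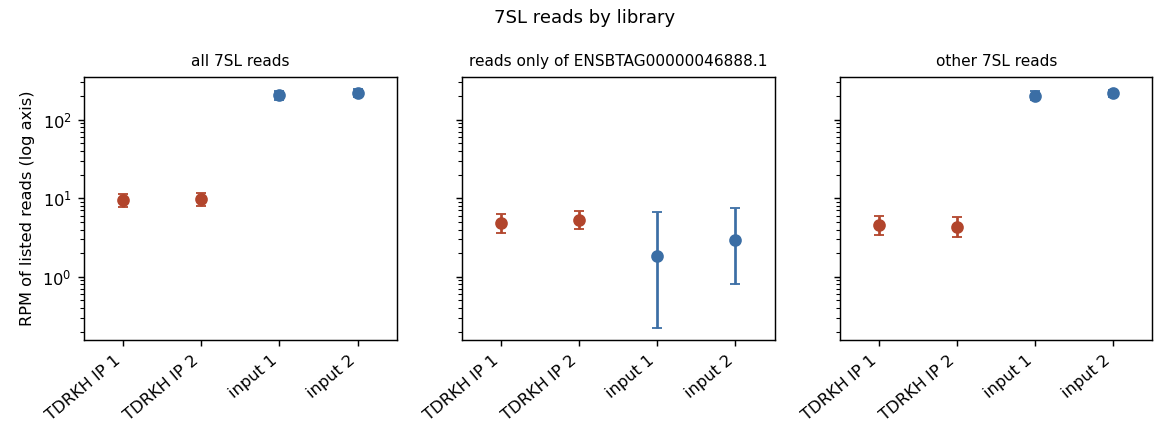
Level of 7SL reads in each library, in RPM on a log axis, for all 7SL reads, the reads whose only name is ENSBTAG00000046888.1, and the other 7SL reads; points are libraries and bars exact Poisson 95% intervals. The other 7SL reads stood at 4.34 to 4.58 RPM in the IPs, against 202 to 216 RPM in the inputs, while the intervals of the reads of the single name overlap between groups.

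The files use 18 names of 7SL copies, each an Ensembl gene identifier, and none of them was found in the RefSeq gene table used here (assembly ARS-UCD2.0), so no position is given. Most of the copies shared reads with others, and their full sequences were not compared. The median sequence outside ENSBTAG00000046888.1 carried 8 names and the highest number was 13. Which copy a read came from is therefore uncertain. Of the 18 names, 12 passed the filter on low counts, 11 fell in the IPs and none rose, beside 74.9% of the 5452 names tested that were called in either direction, 58.5% called lower and 16.4% higher. The 12 had a median log2 change of -5.50, against -2.48 over all names tested. The 11 had at most 0.543 RPM in any IP and passed the filter through the inputs, so their direction is in part set by that filter and the count is no support on its own. The 6 names that did not pass had at most 3.75 RPM in any library.

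ENSBTAG00000046912.1 and ENSBTAG00000047947.1 always shared their reads equally, and each had 0.521 and 0.503 RPM in the IPs, against 28.9 and 25.03 RPM in the inputs. Both are therefore 1 measurement, and it fell by 5.58 on the log2 scale (SE 0.34, edgeR, adjusted p 8.477e-06). ENSBTAG00000047908.1 had 0.521 and 0.533 RPM in the IPs and 21.1 and 22.4 RPM in the inputs. ENSBTAG00000047242.1 had 0.510 and 0.464 RPM in the IPs, against 19.4 and 20.4 RPM in the inputs. The IPs lay far below the inputs for each, with log2 changes of -5.28 and -5.29 (edgeR, adjusted p 1.19e-05 and 1.429e-05). ENSBTAG00000045661.1, among the highest in the inputs, had 0.433 and 0.455 RPM in the IPs, against 21.6 and 30.1 RPM in the inputs, and fell by 5.79 (SE 0.38, edgeR, adjusted p 1.19e-05). The 11 names fell by 4.90 to 6.49.

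ENSBTAG00000046888.1 stood apart from the other names. It had 4.94 and 5.41 RPM in the IPs, against 4.58 and 6.26 RPM in the inputs, and the groups overlapped. Its log2 change was -0.04 (SE 0.37, edgeR, adjusted p 0.927), which is 2.44 above the median of all names. The direction of this name depended on the scaling, with 1.33 under TMM factors (edgeR, adjusted p 0.00751), 2.13 under DESeq2 (adjusted p 0.00796) and 4.67 with microRNA reads as library size (edgeR, adjusted p 5.828e-28), and 0.16 without input 2 (adjusted p 0.859).

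**Figure D2:**
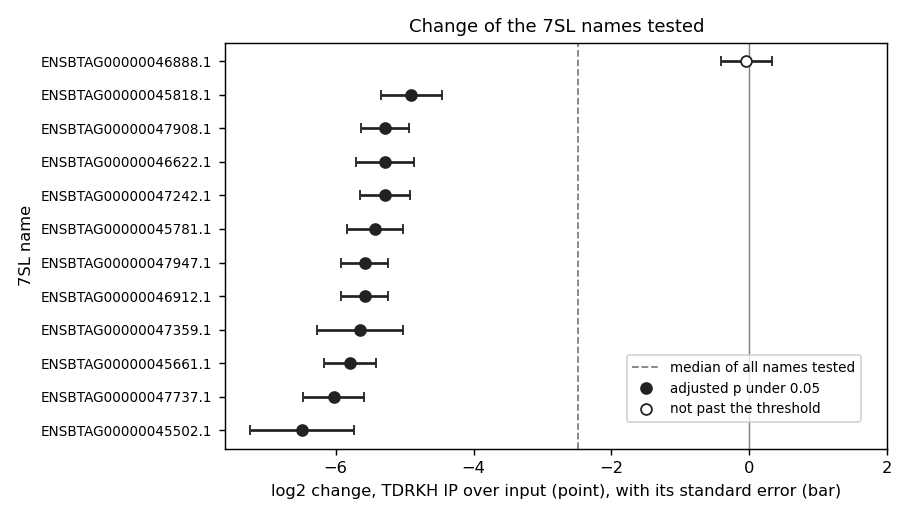
Log2 change of the 12 7SL names tested, TDRKH IP over input, as points with their standard errors; the dashed line is the median of all names tested, at -2.48. ENSBTAG00000046888.1 lies near 0 under this scaling (it turns positive under TMM, DESeq2 and microRNA scaling), and the other 11 names lie between -6.49 and -4.90.

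The reads of this name were then set apart, a split chosen after its values were seen and so given without a test. Reads with no other name than ENSBTAG00000046888.1 numbered 54 and 59 in the IPs, against 2 and 4 in the inputs, over 48 distinct sequences. They made up 51.4% and 55.1% of the 7SL reads of the IPs and 0.909% and 1.35% of those of the inputs. Counted whole, the name had 64 and 66 reads in the IPs, against 21 and 35 in the inputs. Most of its input reads thus also carried names of other 7SL copies, so the record shares sequence with those copies. Whether it is a true 7SL copy was not settled here, since no genome was used. The 7SL shares of first bases and lengths in the IPs rest in large part on the reads with no other name. The level of these reads was 4.85 and 5.33 RPM in the IPs, against 1.85 and 2.95 RPM in the inputs, and the counting intervals of the groups overlapped. The other 7SL reads numbered 51 and 48 in the IPs, against 218 and 292 in the inputs, over 412 sequences. Their level was 4.58 and 4.34 RPM in the IPs, against 202 and 216 RPM in the inputs, and their mean was 46.8-fold lower in the IPs. Leaving out the name that did not fall makes the fall of the remainder larger by construction.

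The reads only of ENSBTAG00000046888.1 shared sequence with the piRNAs of these oocytes. Of the 48 sequences, 46 (95.8%) had 18 bases in common, on the same strand, with a sequence that the files name for a piRNA cluster, against 1 of the 412 other 7SL sequences (0.243%). The piRNA cluster sequences that shared those bases were 74, with 43 and 50 reads in the IPs and 1 read in each input. In RPM these were 3.86 and 4.52 in the IPs, against 0.927 and 0.739 in the inputs. Another 148 piRNA cluster sequences matched on the opposite strand, at 17.2 and 12.2 RPM in the IPs, against 22.2 and 16.99 RPM in the inputs, and none did so for the other 7SL reads. Of the opposite-strand sequences 87.8% began with T.

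Some reads of 7SL sequence carried another name. On the same strand as the other 7SL reads, 92 sequences named for miR-1285 of another species shared 18 bases with them, at 0.539 and 0.723 RPM in the IPs, against 55.6 and 61.3 RPM in the inputs. These stood lower in both IPs, like the 7SL reads they overlap. They are not counted as 7SL here, so the 7SL level of the inputs is the smaller for it.

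The first base of 7SL reads differed between the groups. Reads beginning with T made up 77.1% and 75.7% of 7SL reads in the IPs (Wilson 95% intervals 68.2% to 84.1% and 66.8% to 82.8%), against 18.2% and 19.3% in the inputs (13.7% to 23.8% and 15.2% to 24.1%). The mean was 76.4% ± 1.02 in the IPs and 18.7% ± 0.740 in the inputs (SD, n = 2 each, exact permutation test over libraries, two-sided p 0.333, the smallest that 2 against 2 allows). The groups did not overlap, and the gap of 57.7 percentage points was far wider than the spread within either. G had 9.52% and 7.48% of reads in the IPs, against 28.2% and 36.2% in the inputs. C had 4.76% and 6.54% in the IPs, against 35.01% and 22.7% in the inputs.

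The excess of T was not carried by ENSBTAG00000046888.1 alone. Its own reads began with T in 50 of 54 and 55 of 59 cases in the IPs, against 1 of 2 and 4 of 4 in the inputs. The other 7SL reads began with T in 31 of 51 and 26 of 48 cases in the IPs (60.8% and 54.2%), against 39 of 218 and 53 of 292 in the inputs (17.9% and 18.2%). On stretch 1, where T makes up 19.7% of the bases, 43 of 67 IP reads began with T, against 85 of 450 input reads. On stretch 2, with 16.4% T, the counts were 13 of 30 in the IPs and 4 of 49 in the inputs. Input reads thus began with T about as often as T occurs on stretch 1, and IP reads more often on both. Single starts held many of these IP reads, with 19 of the 67 at base 95 of stretch 1. On stretch 2, 8 of the 30 began at base 15, and both of these bases are T. Whether the excess of T holds apart from these starts was not tested.

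By first base, the level of 7SL reads was lower in the IPs for each of the 4. Reads beginning with T had 7.27 and 7.32 RPM in the IPs, against 37.1 and 42.1 RPM in the inputs, and fell by 2.44 (SE 0.33, edgeR, adjusted p 1.146e-10). Reads beginning with A fell by 5.56. Those beginning with G fell by 6.37 and those with C fell by 6.74, in a fit over 45 pairs of RNA class and first base of which 86.7% were called lower and 6.67% higher. The direction for T turned under TMM factors (0.46, edgeR, adjusted p 0.145), DESeq2 (0.27, adjusted p 0.548) and microRNA scaling (2.30, edgeR, adjusted p 7.02e-05), whereas the values for A, G and C stayed negative under all 4 alternative scalings. A larger share of T in the IPs was no property of 7SL alone. Reads named as tRNA fragments began with T in 77.9% and 77.0% of cases in the IPs, against 28.9% and 29.6% in the inputs, and those of predicted transcripts in 78.0% and 77.0%, against 36.6% and 36.2%. Reads of piRNA clusters differed little, with 88.6% and 87.8% in the IPs and 87.7% and 88.5% in the inputs.

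**Figure D3:**
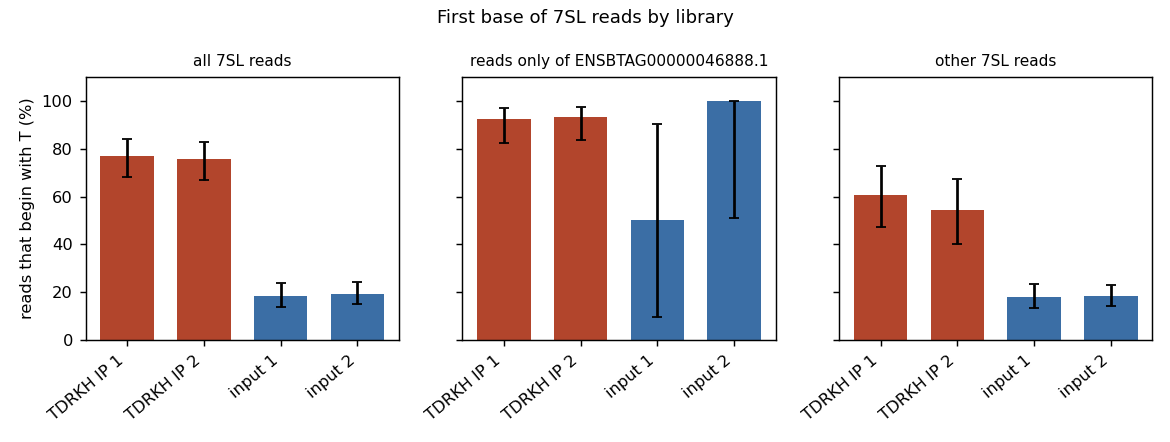
Share of 7SL reads that begin with T in each library, with Wilson 95% intervals, for all 7SL reads, the reads only of ENSBTAG00000046888.1 and the other 7SL reads. The share is 75.7% to 77.1% in the IPs, against 18.2% to 19.3% in the inputs for all reads; in the middle panel the inputs hold only 2 and 4 reads.

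The length of 7SL reads formed a peak in the IPs and a broad spread in the inputs. Lengths of 24 to 27 nt held 58.1% and 60.7% of 7SL reads in the IPs, against 23.6% and 23.0% in the inputs, and the groups did not overlap. Reads over 32 nt made up 2.86% and 3.74% in the IPs, against 10.9% and 20.6% in the inputs. The most frequent length of the IPs was 25 nt, with 22 and 27 reads, of which 16 and 23 were reads only of ENSBTAG00000046888.1. The other 7SL reads of the IPs had 6 and 4 reads at 25 nt, and 8 and 8 at 27 nt. The inputs had their highest counts at 28 nt (28 reads in input 1) and 30 nt (34 reads in input 2). The mean was 25.4 and 25.5 nt in the IPs, against 26.3 and 26.9 nt in the inputs (25.5 ± 0.0604 and 26.6 ± 0.483 nt, SD, n = 2 each, exact permutation test over libraries, two-sided p 0.333, the smallest possible). The share of 26 to 32 nt, a range usual for piRNAs, was 41.9% and 45.8% in the IPs and 42.3% and 38.5% in the inputs. The groups overlapped (exact permutation p 0.667). Reads of piRNA clusters averaged 25.11 and 25.01 nt in the IPs, against 25.2 and 25.22 nt in the inputs. These means lie below 26 nt. The share of 26 to 32 nt therefore does not measure how close 7SL reads came to the piRNA lengths of these libraries.

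The difference in mean length turned when the reads only of ENSBTAG00000046888.1 were left out. Those reads averaged 23.9 and 24.3 nt in the IPs, against 24 and 25.5 nt in the inputs. The other 7SL reads averaged 27.04 and 27.02 nt in the IPs, against 26.28 and 26.96 nt in the inputs, a difference of 0.406 nt. Of these other reads 60.8% and 64.6% were of 26 to 32 nt in the IPs, against 42.7% and 38.4% in the inputs. In the fit of RNA class and length, all 19 lengths of 7SL reads from 18 to 36 nt were called lower in the IPs, beside 83.0% called lower and 10.7% higher of the 206 pairs tested. The log2 change was smallest at 25 nt, with -2.87 (SE 0.54, edgeR, adjusted p 2.158e-07), and largest at 34 nt, with -7.41 (SE 1.03, edgeR, adjusted p 5.505e-12). Of the 19 lengths, 15 were called lower under TMM factors and 11 under DESeq2. With microRNA reads as library size 1 was called lower and 6 had a positive change, 3 of them called.

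**Figure D4:**
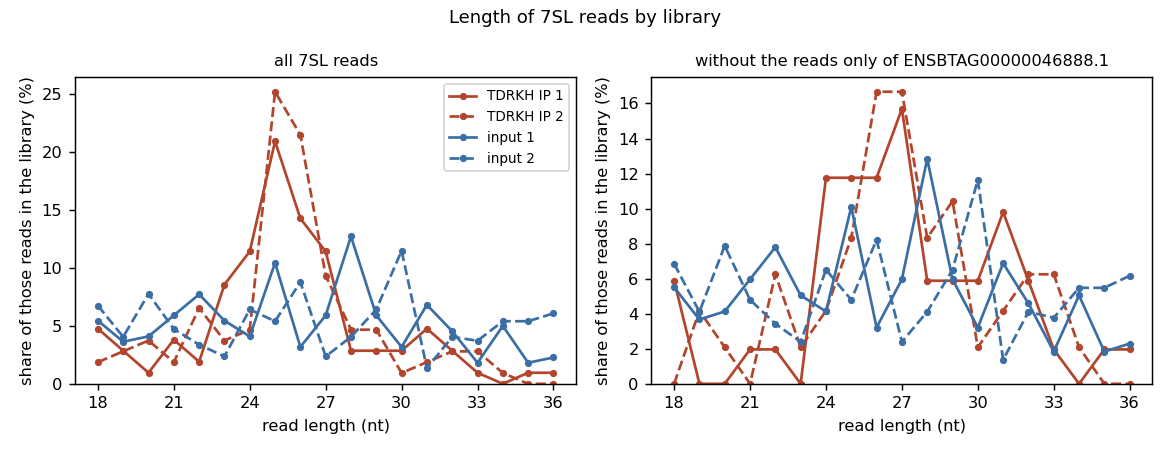
Share of 7SL reads at each length in each library, for all 7SL reads (left) and without the reads only of ENSBTAG00000046888.1 (right); lines join the values of a library. The IPs peak at 25 nt with 21.0% and 25.2% of reads on the left, mostly reads of that name, and the inputs show no shared peak.

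The ends of 7SL reads fell at different places. On stretch 1, 19 of 67 IP reads (28.4%) began at base 95, against 7 of 450 input reads (1.56%). The 67 IP reads used 25 starts in all and the 450 input reads 62, numbers that grow with the reads counted and so are not compared. The most frequent start of the input reads was base 36, with 30 of 450 reads (6.67%), against 2 of 67 IP reads (2.99%). At the other end, bases 121 and 122 tied as the most frequent last base of the IP reads. Base 121 had 10 of 67 (6 and 4 by library), against 3 of 450 in the inputs. Base 122 had 4 and 6 reads in the IPs, against 0 and 3 in the inputs. The most frequent last base of the input reads was base 65, with 48 of 450 reads, against 1 of 67 in the IPs. On stretch 2, IP reads began most often at base 15 (8 of 30, against 0 of 49 in the inputs). Bases 64 and 69 tied as the most frequent start of the input reads. Base 64 had 7 of 49 (3 and 4 by library), and base 69 had 6 and 1, against 0 of 30 in the IPs at each.

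The most abundant sequences differed between the groups, and the one that led the IPs is shown with its first base in capitals.
First in the IPs (stretch 3, bases 3 to 27): Tttcattataggggactggaatgca
It had 7 and 9 reads in the IPs, or 0.628 and 0.814 RPM, against 1 and 2 reads in the inputs, or 0.927 and 1.48 RPM, so its level was lower in both IPs, on 3 input reads. It was the 1 sequence found in all 4 libraries. The next in the IPs, a 27-nt read of bases 95 to 121 of stretch 1, had 3 and 4 reads in the IPs and 0 in both inputs. At the inputs' depth 0 reads allow up to 1.23 RPM (3 counts over the group), above its 0.269 and 0.362 RPM in the IPs, so a difference was not detectable. The 30-nt read that led the inputs, bases 36 to 65 of stretch 1, began with A. It had 0 reads in both IPs, against 2 and 18 in the inputs. Its pooled input level was 60.8 times the 0.135 RPM that 0 reads allow over the IPs, without the counting error of the inputs. Most of its input reads were in input 2. The next in the inputs, an 18-nt read of bases 72 to 89 of stretch 1, had 0 in both IPs and 4 in each input. Its pooled input level was 24.3 times the same limit, again without the counting error of the inputs. These ratios are therefore no lower bounds.

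Reads were next grouped by their first 18 bases, whatever their length. Of the 5 starts with the highest RPM in the IPs, 4 lay on stretch 3, at bases 3, 5, 8 and 11, and all 5 began with T. The start at base 3 had 13 and 15 7SL reads in the IPs, or 1.17 and 1.36 RPM, against 1 and 4 reads in the inputs, or 0.927 and 2.95 RPM, so the groups overlapped. The starts at bases 5, 8 and 11 had 6 to 14 reads in each IP and 0 in both inputs, which at the inputs' depth allow up to 1.23 RPM. The start at base 95 of stretch 1 had 5 and 13 reads in the IPs, or 0.449 and 1.18 RPM, against 1 and 4 reads in the inputs, or 0.927 and 2.95 RPM, so the groups overlapped. Of the 5 leading starts of the inputs, all on stretch 1 (bases 36, 80, 51, 52 and 49), 1 began with T. They had 0 to 2 reads in each IP, and 1 to 22 in each input. The start at base 36 had 5 reads in input 1 and 22 in input 2, the start at base 80 had 8 and 11.

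No 7SL sequence, start or end reached 10 RPM in 2 libraries, the filter for that fit, so none was tested in it. With edgeR's own filter, chosen after seeing this, 4 starts were tested and 3 were called lower, beside 17.6% of 43118 starts called lower and 15.1% higher. The 3 were the starts at bases 36, 51 and 80 of stretch 1, with log2 changes of -7.39, -6.82 and -6.15 (edgeR, adjusted p 2.632e-08, 2.835e-08 and 8.776e-08). The fourth was the start at base 3 of stretch 3, with a log2 change of -0.76 (SE 0.79, edgeR, adjusted p 0.491), over all reads with that start whatever their name. It turned to 3.90 with microRNA reads as library size (edgeR, adjusted p 9.502e-08). Of the last 18 bases, 6 were tested and all 6 were called lower, beside 13.5% called lower and 13.5% higher of 60098. The largest of these changes was at base 110 of stretch 1. No IP read had those last 18 bases, against 14 and 13 input reads (24 and 17 with reads of up to 2 mismatches placed there). The pooled input level of this end was 82.1 times the 0.135 RPM that 0 reads allow over the IPs, input counting error left out. Of whole sequences 1 was tested, the 30-nt read above, and it was called lower (edgeR, adjusted p 8.647e-16), beside 16.2% called lower and 17.8% higher of 63296. The called starts, ends and sequence had at most 0.269 RPM in any IP and passed the filter through the inputs, so their direction was set by that filter and these counts support nothing on their own. All 6 ends kept their direction under the 4 other scalings, and 4 of them were called lower with microRNA reads as library size. These are the same ends, picked by the same filter, so this is no support either.

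**Figure D5:**
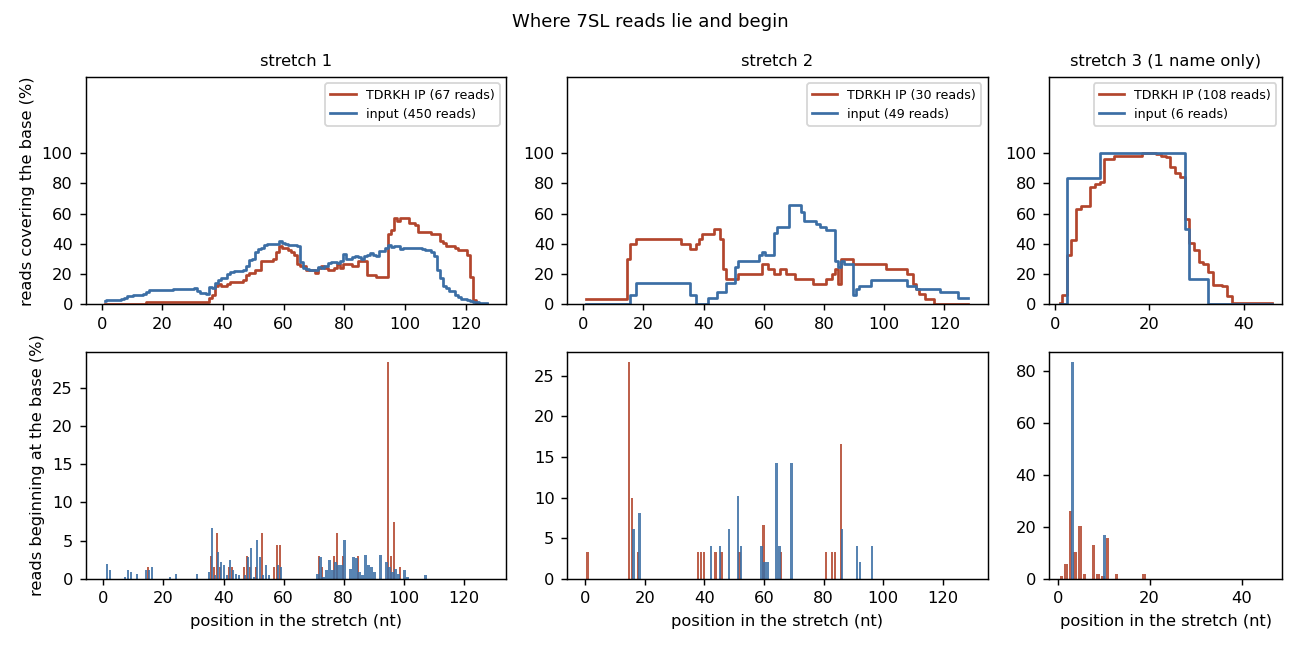
Reads covering each base (upper row) and beginning at each base (lower row) of the 3 stretches, as a share of the reads of the group placed on that stretch, both libraries of a group summed; stretch 3 rests on 6 input reads. On stretch 1 the IP reads start at base 95 in 28.4% of cases, against 1.56% of input reads.

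Few sequences recurred between libraries. Of the 460, 331 were single reads, 13 were seen in both groups, 20 in both IPs and neither input, and 12 in both inputs and neither IP. The same counts over all sequences of the series are not given, and the IPs were 9.12 times deeper. No difference between the groups is therefore read from these counts. With so many single reads the 7SL sequences cannot show how far replicates differ. Over names of all kinds, not sequences, the replicates differed beyond counting noise (chi-square per degree of freedom 2.51 between the IPs and 2.69 between the inputs), so each library was kept as its own sample.

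Other structural RNAs gave a mixed picture. Of 8 related families 6 were tested, 1 rose and 4 fell in the IPs, beside 16.5% of features called higher and 58.6% called lower in that fit. 7SK RNA, which holds the transcription factor P-TEFb inactive, had 3679 and 3746 RPM in the IPs, against 2258 and 2737 RPM in the inputs, and rose by 0.57 (SE 0.08, edgeR, adjusted p 0.0004083), with a positive change under all 4 other scalings. Y RNA, partner of the Ro60 protein, had 18.2 and 25.2 RPM in the IPs, against 684 and 857 RPM in the inputs, and fell by 5.15 (SE 0.16, edgeR, adjusted p 1.019e-07), with a negative change under all 4. RNase P RNA, which trims tRNA 5′ ends, fell by 3.91 and had a positive change with microRNA scaling. The ribosomal 5S rRNA and the splicing RNA U6 fell by 1.22 and 0.52, and both turned positive under TMM, DESeq2 and microRNA scaling. The 5.8S rRNA had a log2 change of -0.17 (edgeR, adjusted p 0.298), which also turned positive under those 3. Vault RNA and RNase MRP RNA did not pass the filter.

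Set against these, the log2 ratio of 7SL to 7SK reads averaged -8.60 in the IPs and -3.56 in the inputs, a difference of -5.05. The ratio of 7SL to Y RNA reads averaged -1.17 in the IPs and -1.86 in the inputs, a difference of 0.69. In each case the groups did not overlap, and the exact permutation test gave a two-sided p of 0.333, the smallest possible. No library size enters these ratios.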

How the data were processed

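Small RNAs of 2 TDRKH IP and 2 input libraries of bovine GV oocytes were measured. Per the labels' protocols, extraction used TRIZOL, library preparation the NEXTflex kit for small RNA, and sequencing a NextSeq in single-end mode. The deposited files give, per the file headers, the read count of each distinct sequence of 18 to 36 nt with the annotations that the authors obtained from the unitas tool. Its settings, its version and the genome build were not found in these sources. Each sequence in the files has an annotation, so totals are of annotated reads, and counts include PCR copies. Intervals and floors cover counting error only. Depth ran from 1079364 to 11138905 listed reads per library.

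A row was divided equally among its names, with sums rounded for the fits. Fits over whole tables used the quasi-likelihood test of edgeR (version 4.0.16 under R 4.3.3) with filterByExpr, library size set to all listed reads, Benjamini-Hochberg adjustment and a threshold of 0.05. Sequences and ends (first or last 18 bases) needed 10 RPM in 2 libraries. Standard errors are approximate, being the log2 change over the root of the F value. Scripts were tested on simulated counts. Single values per library were compared by exact permutation tests. Stretches were assembled with words of 15 bases, each next base being the one with most reads (ties by alphabet), and joined over at least 8 bases. Other settings tried were TMM factors, DESeq2 (version 1.42.0) and its own size factors, microRNA or piRNA cluster reads as library size, other filters, other row treatments, the replicate number as a block, and leaving out each library. Among names, those with the most reads in each group are named, 5 per group; among sequences and ends, those with the highest mean RPM. The 7SL reads, the lists of structural RNAs and marker microRNAs and the tests were chosen with earlier results of these data known. The replicate numbers name libraries and do not pair them in the labels. The sequences of stretches 1 and 2 and of reads on them are not reported here.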

Additional observations from a re-analysis of the deposited data

How the results depend on the processing

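The fall of 7SL in the IPs (log2 change -4.47) kept its direction and stayed past the threshold under 14 of 15 alternatives other than leaving out the reads of a name, with TMM factors at -3.11, DESeq2 at -2.31, piRNA cluster reads as library size at -4.60 and each sequence counted once at -3.29. With the total of microRNA reads as library size it turned to 0.29 (edgeR, adjusted p 0.335). The 14 include settings that could hardly move the value. Only 3 reads of 7SL sequences had a name of another kind, so the 2 row treatments that differ in such reads nearly repeat the main fit. Reads of piRNA clusters fill most of each library, so scaling by them does too. Of the 12 names tested, 11 were called under the listed total, 12 under TMM and DESeq2 (1 higher, 11 lower) and 1 under microRNA reads (1 higher); leaving out each library gave 9 to 11, with 9 of 10 tested without input 2. The median of the 7SL names minus that of all names was -3.06 to -3.02 under each of the 5 scalings. A scaling shifts all names by about the same amount, so this was nearly fixed in advance and is no support. ENSBTAG00000046888.1 turned from -0.04 to 1.33 (TMM), 2.13 (DESeq2) and 4.67 (microRNA reads), and to 0.16 without input 2, with -0.19 without input 1; without either IP it was not tested. Called sequences, starts and ends numbered 0 at 10 RPM, because none was tested; at 5 RPM 0, 2 and 3 were called, and with filterByExpr, chosen after seeing the data, 1, 3 and 6. The difference in the share of T (57.7 points) was 47.9 with each sequence once, 75.7 with sequences of more than 1 read and 39.5 without the reads only of ENSBTAG00000046888.1, an alternative also added after seeing the data. The difference in mean length (-1.13 nt) was -0.384 with more than 1 read and turned to 0.41 without those reads, and the difference in the share of 26 to 32 nt (3.44 points) became 7.19 and 22.2. The cause of these changes was not tested. Leaving out each library moved the 7SL total between -4.51 and -4.41, the share of T between 57.0 and 58.4 points, the mean length between -1.47 and -0.791 nt and the share of 26 to 32 nt between 1.49 and 5.38 points. With the replicate number as a block the 7SL total was -4.47 (edgeR, adjusted p 1.365e-06) and 11 names were called, so the block changed no call; the deviations of same-numbered libraries from their group means had a correlation of 0.01 over 5452 names, and the libraries share only a number. Rows counted whole were not run for single names. Depth limits single sequences and ends, since 0 reads allow up to 0.135 RPM over the IPs and 1.23 RPM over the inputs.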
